A study of Mus musculus with 64 samples.

Results

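The comparison set the response of clone V to fibroblasts against that of clone K, and it used 16 of the 64 libraries of the series. V and K are clonal lines, each a single clone, isolated from tumors of KPC mice, a mouse model of pancreatic ductal adenocarcinoma, of C57BL/6 mixed background. The study placed V in its group 1 and K in its group 2. Each clone gave 4 mono-culture libraries and 4 coculture libraries, the latter from cells grown beside fibroblasts for 48 h and then separated by the green fluorescent protein of the tumor cells. The labels do not say whether mono-cultured cells were sorted too. The quantity of interest was the interaction of clone and culture, which is the log2 change of a gene from mono-culture to coculture in V minus the same change in K.

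V and K were chosen by a measured value, the rise of stress-response genes in coculture, as the clones with the strongest and the weakest rise. The stress genes are therefore given below as descriptions without a test. On 40 genes of 3 lists (factors of the integrated stress response, amino acid synthesis targets and amino acid transporters), the median log2 rise was 1.82 in V, the highest of the 8 lines. It was 0.37 in K, which was not the lowest, because clone N rose by 0.27. Next to them in the order stood T at 1.16, below V, and KPC1 at 0.47, above K. The labels name the samples as pancreatic tumor cells. Of the ductal markers, Krt8, Krt18, Krt19 and Sox9 were expressed in both clones, whereas Epcam and Cldn7 were too low to be tested. Cdh1, the epithelial cadherin, was at a mean of 296 CPM (counts scaled to library size) in V mono-cultures and 5.96 in K mono-cultures.

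The integrated stress response starts when kinases such as Gcn2 or Perk phosphorylate the translation factor eIF2 in response to amino acid shortage or misfolded protein. General translation then falls, while translation of the transcription factor Atf4 rises. Atf4 and its partners, among them C/EBP factors, induce genes for amino acid synthesis and uptake, tRNA charging and, when the stress lasts, the factors Ddit3 and Trib3. In pancreatic cancer this program is known for supplying amino acids such as asparagine to tumor cells.

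The libraries held 14424227 to 19486215 counts. Sample numbers in the labels run from 1 to 43 and from 44 to 64, and their index numbers were counted separately. All V mono-cultures carried numbers of the first run and all K mono-cultures numbers of the second, whereas each coculture group had 2 libraries of each. The difference between the clones in mono-culture and the run of numbers cannot be told apart, and the interaction could not be computed within 1 run. With the run as a covariate, 4648 genes passed the threshold for the interaction, and 4372 of them were among the 5865 that passed without it, all with the same sign. The labels do not state that replicates were separate cultures, so p-values measure the spread between these samples, which may be technical.

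RNA of fibroblast markers was seen in the sorted cocultures. Of 22 tested markers, 13 rose in V and 16 in K (edgeR, adjusted p under 0.1), beside 32.5% and 12.3% of all genes. In V 4 fell and in K 2, beside 31.1% and 8.98% of all genes. Of 26 fibroblast markers, 8 were at or under 1 CPM in both mono-cultures. Their summed level was between 0 and 0.251 CPM in V mono-cultures and between 0.137 and 0.51 CPM in K mono-cultures. It was between 18.2 and 115 CPM in V cocultures and between 27.6 and 159 CPM in K cocultures, so the coculture groups overlapped. Postn, a matrix protein of fibroblasts, was at 6.69, 33, 45.2 and 78.1 CPM in V cocultures and at 17, 25.7, 133 and 116 CPM in K cocultures. Col1a2, a collagen chain outside the 8, went from a mean of 3.42 to 162 CPM in V and from 0.3 to 220 CPM in K. How much of it came from fibroblasts was not tested. Tcf21 was at 0 in all 16 libraries, and Lum and Fap stayed under 1 CPM on average. In sorted bulk samples, few cells rich in a transcript and many cells with little of it cannot be told apart.

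Coculture changes passed the threshold for 8228 genes in V and 2747 in K. By edgeR's quasi-likelihood test (Benjamini-Hochberg adjusted p under 0.1), 4206 of 12937 genes rose in V (32.5%) and 4022 fell (31.1%). In K, 1585 genes rose (12.3%) and 1162 fell (8.98%). Leaving out the 3 coculture libraries with the most fibroblast RNA, which left 2 K cocultures, reduced the count for K to 1185 and left 8177 for V. Among 9063 genes at 5 CPM or more in all 4 groups, the SD of the log2 change over genes was 0.612 in V and 0.313 in K.

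The response differed between V and K for 5865 of 12937 genes (45.3%). The interaction was above 0 for 2772 genes (21.4%) and below 0 for 3093 (23.9%). Of these genes, 2051 rose in V with no change past the threshold in K, and 2183 fell in V with none past it in K. A change in K alone was less frequent, with 280 genes that rose and 214 that fell. In 477 genes both clones passed the threshold in opposite directions, 208 of them up in V and down in K and 269 the reverse. Between the clones themselves, 62.2% of all genes differed in mono-culture and 72.1% in coculture. For 1928 of the 5865 genes the clones differed past the threshold only in the coculture, and for 1074 only in the mono-culture.

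**Figure D1:**
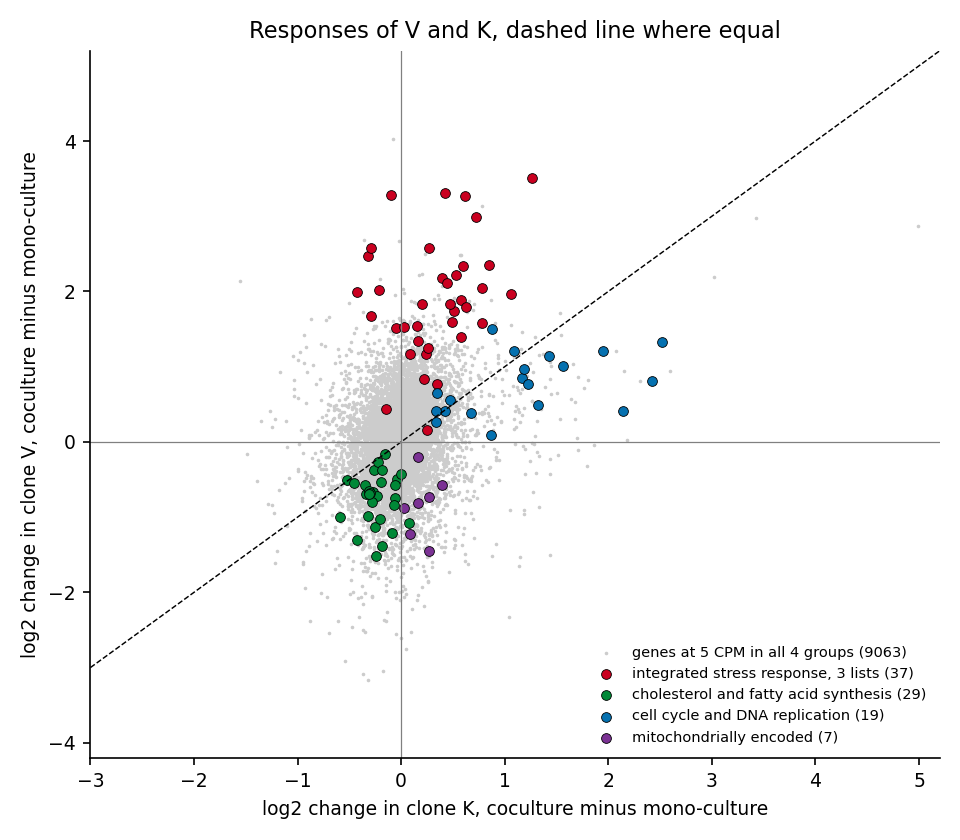
Each point is a gene at 5 CPM or more in all 4 groups (9063 genes), with its log2 change from mono-culture to coculture in clone K on the horizontal axis and in clone V on the vertical axis. Stress-response genes (red), which chose the clones, lie above the dashed line of equal change except Ddit4, cholesterol and mitochondrially encoded genes (green, purple) lie mostly and cell cycle genes (blue) partly below it, and the 9063 genes spread more along the V axis (SD 0.612) than along the K axis (SD 0.313).

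The 4 V cocultures stood apart from the other 12 libraries in the stress-response genes. Atf4, the transcription factor at the center of the response, was at 401, 340, 499 and 287 CPM in V mono-cultures and at 1164, 1108, 1142 and 935 CPM in V cocultures. In K it was at 384, 257, 402 and 245 CPM in mono-cultures and at 370, 256, 330 and 292 CPM in cocultures. Every V coculture was above every other library, and the K groups overlapped throughout. The log2 change was 1.51 in V and -0.05 in K, a difference of 1.56 ± 0.25 (SE).

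Ddit3, the factor also known as Chop that acts under lasting stress, was lower in V than in K before coculture and higher after it. Its level was 18.5, 17, 28 and 19.1 CPM in V mono-cultures and 150, 166, 322 and 168 CPM in V cocultures. K mono-cultures had 46.9, 39.2, 50.3 and 38.5 CPM, and K cocultures 42.2, 34, 47.9 and 38.9 CPM. The mean of V rose 9.75-fold, that of K changed 0.932-fold, and the interaction was 3.39 ± 0.30. Without the third V coculture, the highest library, it was 3.04.

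Chac1, which degrades glutathione and is a target of Atf4, was at 16.5, 11.1, 26.7 and 5.02 CPM in V mono-cultures and at 127, 172, 183 and 104 CPM in V cocultures. In K its level was 12.3, 6.03, 15.5 and 5.91 CPM in mono-cultures and 17.9, 8.03, 15.9 and 11.6 CPM in cocultures. The V groups did not overlap and the K groups did. Trib3, a pseudokinase that feeds back on Atf4, rose 7.93-fold in V and 1.66-fold in K. Atf3, a stress-induced factor, and Ppp1r15a, the phosphatase subunit that reverses eIF2 phosphorylation, had interactions of 2.79 ± 0.44 and 2.87 ± 0.34. Among the 17 tested factors and feedback genes, 16 had a larger log2 change in V. The exception was Ddit4, an mTORC1 inhibitor, at 0.16 in V and 0.25 in K. Fgf21 did not pass the filter on low counts.

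**Figure D2:**
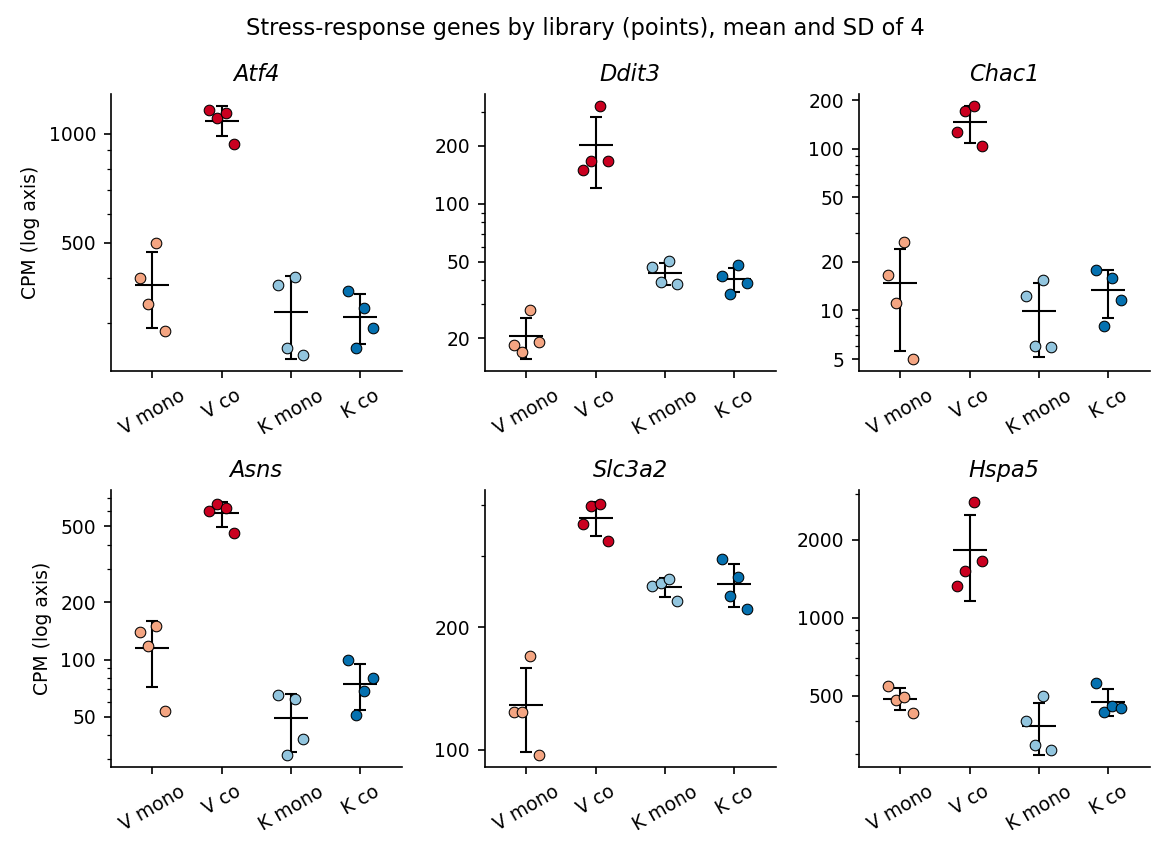
Level in CPM on a log axis in each library (points), with the mean and SD of 4 libraries, for Atf4, Ddit3, Chac1, Asns, Slc3a2 and Hspa5 in mono-cultures and cocultures of V and K. The V cocultures lie above all other libraries in each panel, for example 935 to 1164 CPM of Atf4 against 245 to 499 CPM elsewhere.

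Enzymes of amino acid synthesis followed the same order. Asns, the asparagine synthetase (chr6:7675169-7693254 on GRCm38, the assembly also called mm10), was at 139, 118, 150.5 and 53.5 CPM in V mono-cultures and at 602, 653, 620 and 460 CPM in V cocultures. K mono-cultures had 65.4, 31.6, 61.7 and 38.5 CPM and K cocultures 99.8, 51.1, 68.2 and 79.8 CPM. The V groups were separate, while the K groups overlapped with a higher mean in coculture. The mean rose 5.06-fold in V and 1.52-fold in K. For Psat1, of serine synthesis, the log2 change was 2.35 in V and 0.85 in K, and for Mthfd2, of mitochondrial folate metabolism, it was 2.58 and 0.27. Cth, which makes cysteine, had the largest V change of the list at 3.50, against 1.27 in K. Of the 14 enzymes, 13 had a larger change in V. Cbs, the enzyme that precedes Cth, was the exception at -1.46 in V and 0.99 in K, with group means between 1.12 and 4.56 CPM.

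Transporters and tRNA synthetases showed smaller differences in the same direction. All 9 tested transporters had a larger change in V, led by Slc1a4, a transporter of neutral amino acids, with an interaction of 1.96 ± 0.28. Slc3a2, the shared heavy chain of several amino acid exchangers, was higher in K than in V mono-cultures (means of 251 and 129 CPM) and lower in K than in V cocultures (255 and 371 CPM). Slc7a11, the cystine transporter, rose 3.33-fold in V and 1.43-fold in K. Of 20 cytosolic tRNA synthetases, 19 had a larger change in V, with a median interaction of 0.98, and Wars, Gars and Cars had the largest. Dars, Qars, Hars and Vars had differences of 0.15 or less.

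The other stress lists separated the clones less. Hspa5, the main chaperone of the endoplasmic reticulum, was at 432 to 544 CPM in V mono-cultures and at 1327 to 2788 CPM in V cocultures, against 311 to 498 CPM and 435 to 559 CPM in K. Of 22 chaperone and unfolded protein response genes, 21 had a larger change in V, with a median interaction of 0.72. Calr and Canx, the calnexin cycle chaperones, had interactions of 0.05 ± 0.17 and -0.02 ± 0.11. The 13 tested heat shock genes had a median of 0.23 and the 18 Nrf2 targets a median of 0.00. Within the Nrf2 list, Hmox1, which degrades heme, had an interaction of 2.05 ± 0.28, whereas Gstm1, a glutathione transferase, had one of -1.22 ± 0.27. The kinases Eif2ak1, Eif2ak3 and Eif2ak4 had log2 changes of 0.11 or less in V and between -0.02 and 0.02 in K. Eif2ak2, which is itself interferon-induced, changed by 0.01 in V and 0.62 in K.

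Over the 40 tested genes of 42 listed as factors, enzymes and transporters, the stress response had a median interaction of 1.45, beside -0.01 over all genes tested. In V, the 4 cocultures lay above all 4 mono-cultures for 37 of the 40 genes as for 3389 of all 12937 genes (32.5% were called higher in V). In K this held for 8 of the 40 and for 1452 of all 12937 genes (12.3% called higher). Within each run of sample numbers, V cocultures were above K cocultures by 2.04 and 1.58 on the log2 scale for Atf4, by 2.67 and 1.82 for Ddit3 and by 3.32 and 2.67 for Asns, each from 2 libraries per clone. The stress-response score, the median centered log2 CPM of the 40 genes, was -0.91 ± 0.39 in V mono-cultures and -1.08 ± 0.16 in K mono-cultures (SD, n = 4). It was 0.84 ± 0.20 in V cocultures and -0.83 ± 0.17 in K cocultures. V did not reach the highest level of the 8 lines, since KPC1 cocultures were at 1.16 ± 0.08.

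**Figure D3:**
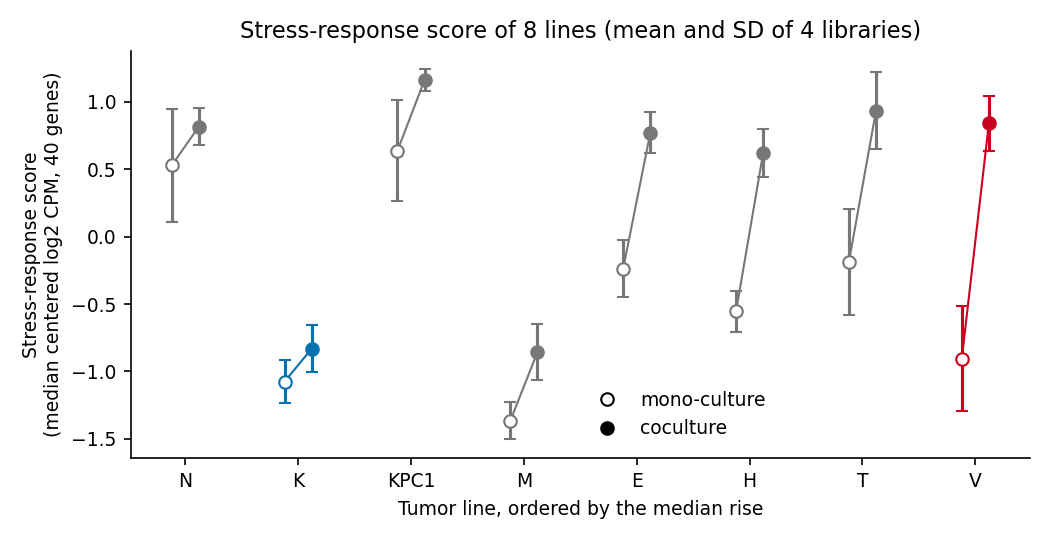
Stress-response score (median over 40 genes of log2 CPM centered on the mean of 64 libraries) for 8 tumor lines in mono-culture (open) and coculture (filled), mean and SD of 4 libraries, ordered by the median rise. V (red) went from -0.91 to 0.84 and K (blue) from -1.08 to -0.83.

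Part of these genes carry an Atf4 site before their start. The composite element bound by Atf4 with C/EBP partners was searched as TGATGNAA on both strands in the 250 bases before each gene start of RefSeq on GRCm38.p6. It was in 3.45% of 32851 such windows. The shares of gene lists are by gene instead, where any window of a gene could hold the letters. A window was found for 36 of the 42 stress-response genes, and 10 of them (27.8%) held the letters, namely Atf3, Nupr1, Chac1, Jdp2, Fgf21, Vldlr, Asns, Pycr1, Got1 and Slc7a11. Among tRNA synthetases, 3 of 13 genes with a window held them. The stretches below belong to genes with a large interaction and are written in the direction of the gene, with the matching letters in capitals:
Atf3 (chr1:191183410-191183469, minus strand): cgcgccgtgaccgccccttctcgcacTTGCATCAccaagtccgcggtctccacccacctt
Chac1 (chr2:119351023-119351082, plus strand): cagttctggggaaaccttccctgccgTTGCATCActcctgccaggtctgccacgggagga
Nupr1 (chr7:126625547-126625606, minus strand): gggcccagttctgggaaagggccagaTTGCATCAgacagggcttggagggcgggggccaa
Vldlr (chr19:27216794-27216853, plus strand): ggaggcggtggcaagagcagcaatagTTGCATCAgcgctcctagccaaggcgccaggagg
Asns (chr6:7693210-7693258, minus strand): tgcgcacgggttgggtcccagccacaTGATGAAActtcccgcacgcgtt
Aars (chr8:111033704-111033763, plus strand): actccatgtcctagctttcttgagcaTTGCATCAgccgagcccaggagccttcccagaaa

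The element ended 103 bases before the RefSeq start of Atf3, 186 before that of Chac1 and 16 before that of Asns. The gene span of Asns given above is that of GENCODE, whose outermost start lies further upstream. The matching letters of Asns therefore fall within the span, and only the outermost bases of the stretch lie beyond it. The Asns stretch holds TGATGAAA, and the other 5 hold TTGCATCA, which is TGATGCAA read on the other strand. A match in these letters is a description of the window. Ddit3, Trib3 and Psat1, which had large interactions too, did not hold them in this window.

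Outside the stress lists, Ptgs2, the inducible cyclooxygenase, was at 16.8, 15.2, 46.4 and 13.4 CPM in V mono-cultures and at 250.1, 429, 547 and 272 CPM in V cocultures. K mono-cultures had 49.4, 16.5, 51 and 17.7 CPM and K cocultures 43.3, 23.4, 35.1 and 25.6 CPM. All V cocultures were above all other libraries. The interaction was 4.11 ± 0.60 (adjusted p = 6.4e-05 in edgeR's quasi-likelihood test). The clones were chosen as extremes in these libraries, so this and the following p-values do not stand for a random pair of clones. On simple means of log2 CPM, Ptgs2 rose by 4.14 in V, 0.07 in K and between 0.54 and 2.36 in the other 6 lines.

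Areg and Ereg, ligands of the EGF receptor, behaved alike in V. Areg was at 2.33, 1.69, 4.53 and 1.13 CPM in V mono-cultures and at 26, 32.2, 69.2 and 38.8 CPM in V cocultures, and it stayed between 0.383 and 2.78 CPM in the 8 K libraries. Its interaction was 4.08 ± 0.72 (adjusted p = 0.00033). Ereg rose 4.09-fold in V and 1.01-fold in K (adjusted p = 0.00038 for the interaction). Upstream of Areg, the cAMP response element TGACGTCA, whose reverse strand reads the same, was found in the 250 bases before the start, as in 1.55% of all windows. It is shown here because Areg had the largest interaction of the MAPK list:
Areg (chr5:91139512-91139571, plus strand): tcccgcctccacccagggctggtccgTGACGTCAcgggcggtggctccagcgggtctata

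The 21 genes of MAPK output, which follow activity of the ERK pathway, were on both sides. The interaction was above 0 past the threshold for 7 and below it for 9 (background 21.4% and 23.9%). Fosl1, Phlda1, Dusp5, Dusp4 and Epha2 were on the V side with Areg and Ereg. Among those below 0 were Spred3, Etv5 and Ccnd1. Spred3, a Ras pathway inhibitor, fell from a mean of 73.1 to 39 CPM in V and rose from 39.98 to 57.2 CPM in K (interaction -1.42 ± 0.20, adjusted p = 4.4e-05). Etv5, an Ets factor, was at 90.8 to 92.2 CPM in V mono-cultures and at 51.1 to 78.5 CPM in V cocultures. In K it was at 48.1 to 60.1 CPM and at 72.4 to 91 CPM, so each clone's groups were separate and the direction was opposite (interaction -1.13 ± 0.16, adjusted p = 5.1e-05). Ccnd1, the cyclin that drives entry into the cycle, rose 2.37-fold in K, from 119 to 323 CPM in mono-cultures to 314 to 614 CPM in cocultures, and changed 0.842-fold in V (interaction adjusted p = 0.0033).

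Lipid synthesis fell more in V. Of 29 tested genes of cholesterol and fatty acid synthesis, 27 fell in V and 15 in K, beside 31.1% and 8.98% of all genes, and none rose in either (32.5% and 12.3%). The interaction was below 0 past the threshold for 21 of the 29 (23.9% of all genes) and above 0 for none (21.4%). Insig1, which retains the sterol regulator in the endoplasmic reticulum and is itself a sterol target, was at 118, 133, 114 and 118 CPM in V mono-cultures and at 38.3, 47, 56.1 and 43.6 CPM in V cocultures. K mono-cultures had 500.2, 434, 490 and 493 CPM and K cocultures 464, 424, 415 and 383 CPM. V fell with no overlap of its groups, and the K groups overlapped. The interaction was -1.20 ± 0.15 (adjusted p = 1.5e-05). Hmgcs1, an early enzyme of the mevalonate pathway, fell in both clones, to 0.406-fold in V and 0.745-fold in K. Mvk, Dhcr7, Scd1, Scd2, Elovl6 and Fads2 had interactions between -1.28 and -0.78. On simple means of log2 CPM, Insig1 changed by -1.405 in V, -0.188 in K and between -1.19 and -0.153 in the other 6 lines. Scd2 changed by -1.144 in V, -0.256 in K and between -1.388 and -0.248 in the other 6 lines.

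Transcripts encoded in the mitochondrial genome fell in V. Of 11 tested, 7 fell in V (31.1% of all genes) and none passed the threshold in K in either direction (12.3% rose and 8.98% fell). The interaction was below 0 past the threshold for 9 (23.9% of all genes). These tallies include mt-Co2, mt-Co3, mt-Atp6 and mt-Atp8, which had at most 67 counts in any library, beside 87193 to 281021 for mt-Co1. Why these counts were so low was not tested. mt-Nd5, a subunit of complex I, was at 3265, 3233, 3887 and 4646 CPM in V mono-cultures and at 1829, 1596, 1622 and 1380 CPM in V cocultures. K mono-cultures had 1568, 3583, 3591 and 2964 CPM and K cocultures 2954, 3967, 2435 and 3065 CPM. The V groups did not overlap, and the K groups did. The interaction was -1.31 ± 0.29 (adjusted p = 0.0022). On simple means of log2 CPM, mt-Nd5 changed by -1.227 in V, 0.136 in K and between -1.199 and -0.171 in the other 6 lines. mt-Nd6, which is read from the opposite strand of mt-Nd5 and overlaps its end, had an interaction of -1.72 ± 0.31 in counts (adjusted p = 0.00044). In the authors' RPKM values it was -0.54 (adjusted p = 0.266, limma on log2(RPKM + 1)). The mitochondrial genes together took 31286 to 42156 CPM in V mono-cultures, 21475 to 29526 in V cocultures, 14592 to 43751 in K mono-cultures and 33024 to 44321 in K cocultures. The first K mono-culture had the lowest sum and the lowest mt-Nd5 of its group.

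**Figure D4:**
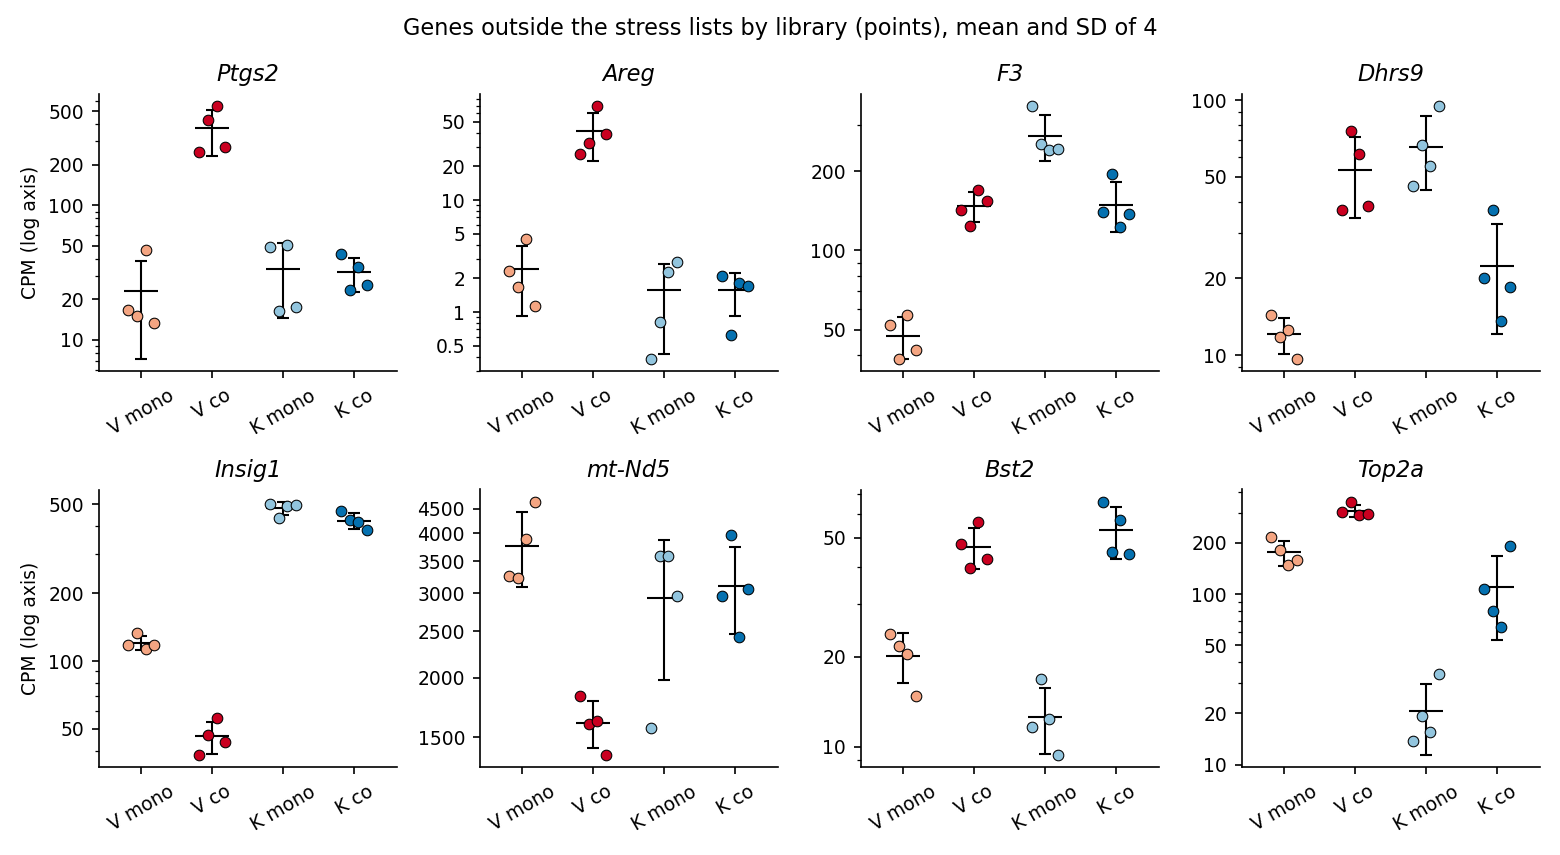
Level in CPM on a log axis in each library (points), with the mean and SD of 4 libraries, for 8 genes outside the stress lists. V cocultures lie above all other libraries for Ptgs2 and Areg, V and K moved in opposite directions for F3 and Dhrs9, Insig1 and mt-Nd5 fell in V, Bst2 rose in both clones, and Top2a rose most from the low level of K mono-cultures (13.8 to 34.1 CPM).

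Ribosome biogenesis rose in V. Of 24 factors, 23 rose in V and 11 in K, beside 32.5% and 12.3% of all genes, and none fell in either. The interaction was above 0 past the threshold for 16 (21.4% of all genes) and below 0 for none (23.9%). Nolc1, a nucleolar chaperone, was at 91.7 to 106 CPM in V mono-cultures and at 236 to 309 CPM in V cocultures, against 73.4 to 110 CPM and 95.7 to 133 CPM in K (interaction 0.99 ± 0.18, adjusted p = 0.00044). On simple means of log2 CPM, Nolc1 changed by 1.365 in V, 0.392 in K and between 0.521 and 1.468 in the other 6 lines. Rrp12, Ltv1, Rrp9 and Gnl3 had interactions between 1.05 and 1.45.

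Cell cycle genes rose in both clones. Of 30 genes, 26 rose in V and 29 in K (32.5% and 12.3% of all genes), and the interaction was below 0 past the threshold for 11 (23.9% of all genes) and above 0 for 1 (21.4%), the replication licensing factor Cdt1. Top2a, the topoisomerase of dividing cells, was at 216, 181, 148 and 159 CPM in V mono-cultures and at 305, 347, 290 and 294 CPM in V cocultures. K mono-cultures had 13.8, 19.2, 15.5 and 34.1 CPM and K cocultures 107, 79.4, 64.4 and 191 CPM. Neither clone's groups overlapped, and every K library stayed below the V cocultures (interaction -1.61 ± 0.40, adjusted p = 0.0045). In the mono-cultures of the other 6 lines Top2a averaged between 103.5 and 448.5 CPM, above the 20.7 CPM of K. Mcm5, of the replicative helicase, rose 1.33-fold in V and 4.42-fold in K (adjusted p = 0.0002). For Mki67, the proliferation marker, the interaction of -1.19 ± 0.73 did not pass (adjusted p = 0.214), and without K mono-culture 4, the highest of its group, it was -2.08 (adjusted p = 0.0235). K coculture 4 was at 97.2 CPM of Mki67, with the next library of its group at 24.8 CPM. The estimate thus depends on single libraries in both K groups.

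Interferon-stimulated genes act in antiviral defense and antigen presentation. Of 28 tested genes, 20 rose in K and 17 in V, beside 12.3% and 32.5% of all genes. The interaction was below 0 past the threshold for 12 and above 0 for 4, beside 23.9% and 21.4% of all genes. Bst2, which tethers virus particles, was at 23.8, 21.7, 20.5 and 14.7 CPM in V mono-cultures and at 47.5, 39.6, 56.5 and 42.6 CPM in V cocultures. K mono-cultures had 11.7, 16.8, 12.4 and 9.39 CPM and K cocultures 65.8, 44.6, 57.5 and 44.3 CPM. It rose without overlap in both clones, 2.31-fold in V and 4.22-fold in K, and the coculture groups of the clones overlapped (interaction -0.87 ± 0.26, adjusted p = 0.0129). Xaf1 and Parp14 rose by 1.68 and 1.19 in K on the log2 scale and changed by -0.13 and -0.43 in V. Igtp, an interferon-induced GTPase, rose by 1.44 in K and fell by 0.92 in V (interaction adjusted p = 0.00071). Isg15, Usp18, Oasl2 and Rtp4 rose in both clones from levels of 4.33 CPM or less, and none of their interactions passed the threshold.

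Of 28 listed interferon-stimulated genes with a window, 14 (50%) held the letters TTTCNNTTTC of the interferon-stimulated response element. Both strands were searched within 250 bases before the start. That share is by gene, whereas 2.98% is the share of all windows. These 28 are not the same as the 28 tested genes. Ifit3b, Oas1a and Rsad2, which held the letters, were not tested. The stretch of Igtp is shown because its direction was opposite in the clones:
Igtp (chr11:58199496-58199555, plus strand): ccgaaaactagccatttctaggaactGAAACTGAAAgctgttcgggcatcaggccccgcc
The summed fibroblast markers were high in K cocultures 3 and 4. Bst2 and Xaf1 were highest in the first K coculture, whereas Isg15, Ifit1, Ifit3 and Oasl2 were highest in the fourth. Over the V cocultures, Isg15, Ifit1, Ifit3 and Oasl2 rose in the same order as Postn, and Bst2 did not. The part of fibroblast RNA in this list was not tested.

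Genes of the epithelial and mesenchymal state mostly gave counts near or somewhat above those of all genes, but no tested epithelial gene rose in V. Krt8, an epithelial keratin, was at 702 to 892 CPM in V mono-cultures and at 254 to 385 CPM in V cocultures, against 1013 to 1492 CPM and 1112 to 1696 CPM in K (interaction -1.54 ± 0.22, adjusted p = 6.2e-05). Of 13 tested epithelial genes, 4 fell in V (31.1% of all genes) and none rose (32.5% of all genes). The interaction passed the threshold below 0 for 4 (23.9% of all genes) and above 0 for none (21.4%). The shares of falls and of interactions below 0 were near those of all genes, whereas those in the other direction were not. Among 22 genes of epithelial-mesenchymal transition, 7 had an interaction above 0 and 8 one below it, beside 21.4% and 23.9% of all genes. Twist1, a mesenchymal factor, fell to 0.707-fold in V and rose 1.77-fold in K, and Loxl2, a lysyl oxidase, did the same (0.392-fold and 1.89-fold). Snai2, another mesenchymal factor, rose by 1.66 in V on the log2 scale, with 0.45 in K (interaction adjusted p = 0.0053). Cx3cl1, a membrane-bound chemokine, fell from 98.4 to 121 CPM in V mono-cultures to 19.2 to 43.1 CPM in V cocultures and was at 31.8 to 44.3 and 44.1 to 59.8 CPM in K (interaction -2.19 ± 0.26, adjusted p = 1.3e-05).

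Among 14 p53 targets, 7 had an interaction above 0 and 1 below 0, beside 21.4% and 23.9% of all genes. Bbc3, the death factor Puma, rose 3.09-fold in V and changed 0.991-fold in K (adjusted p = 0.00012), and Plk2, Aen and Tnfrsf10b were on the same side. Sesn1, a stress-sensing inhibitor of mTORC1, fell to 0.377-fold in V (adjusted p = 9.2e-05 for the interaction). Cdkn1a, the cell cycle inhibitor p21, is among the 7, with an interaction of 0.73 ± 0.30 (adjusted p = 0.0618), although its changes of 0.30 in V and -0.43 in K did not pass on their own.

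Among glycolysis and hypoxia genes, few interactions passed the threshold. Pdk1 and Ldha, of the glycolytic list, were highest in the fourth library of every group. Pdk1 had 1107 counts in the fourth V mono-culture and 312 to 679 in the others of that group. In K cocultures it had 1371 counts in the fourth and 483 to 663 in the others. The main fit held no replicate block, so such a shared shift counted as spread, and its effect on this list was not tested. Of 23 glycolytic genes, 3 had an interaction above 0 and 2 below 0, which is under the background of 21.4% and 23.9%. The largest was Pfkp, a phosphofructokinase, at 5.32 to 5.9 CPM in V mono-cultures and 28.4 to 53.7 CPM in V cocultures, and at 5.2 to 8.69 and 4.29 to 6.63 CPM in K (interaction 3.04 ± 0.30, adjusted p = 2.9e-06). Of 13 hypoxia targets, 4 had an interaction above 0 (21.4% of all genes), namely Ero1l, Ndrg1, P4ha2 and Vegfa. Ero1l, an oxidase of the endoplasmic reticulum that stress also induces, rose 5.58-fold in V and 1.49-fold in K (adjusted p = 0.00026).

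**Figure D5:**
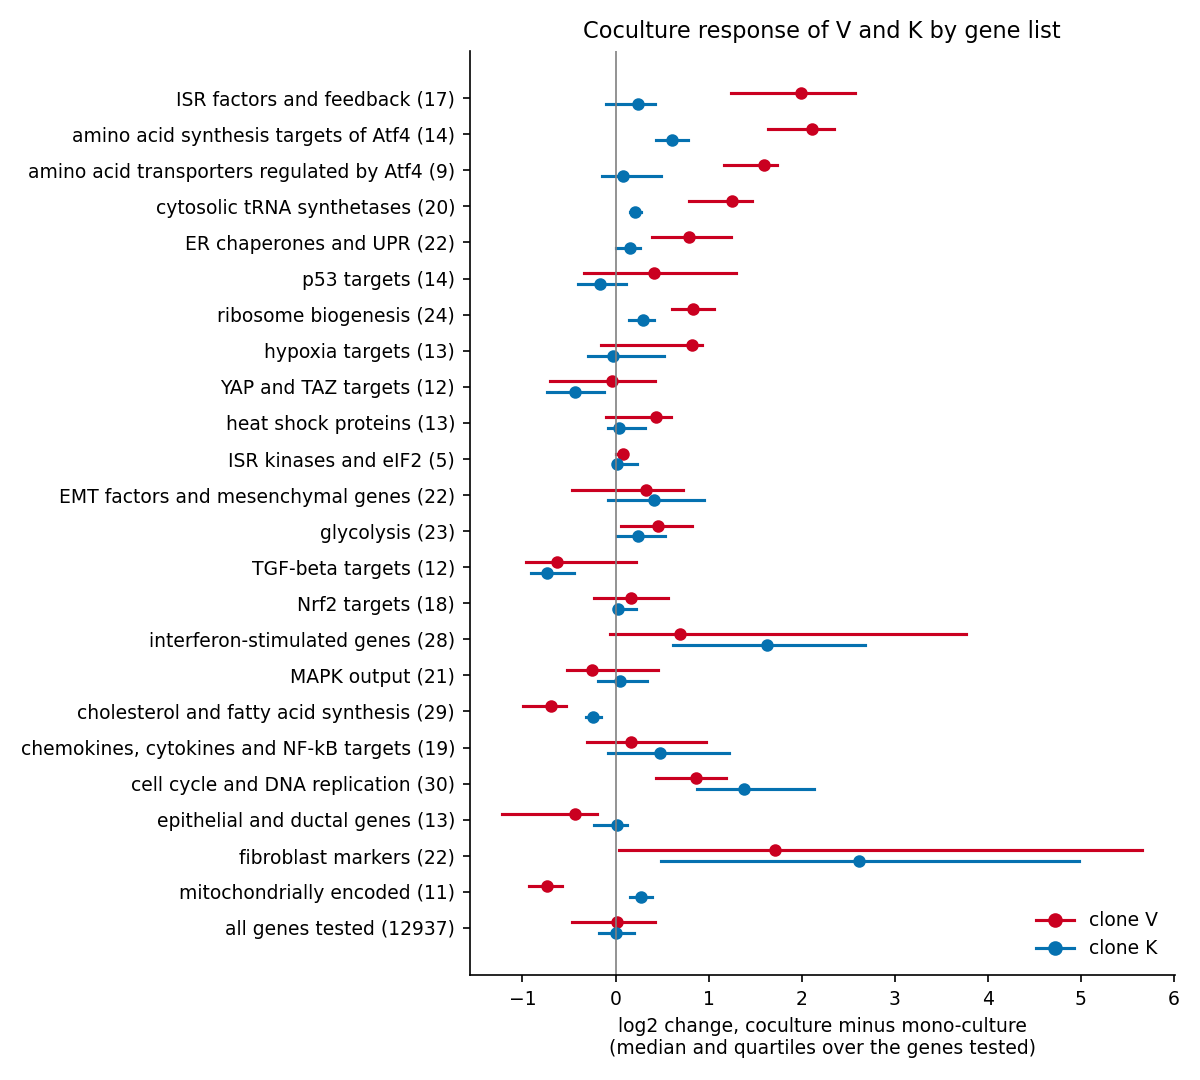
Median (point) and quartiles (line) of the log2 change from mono-culture to coculture over the tested genes of each list, for clone V (red) and clone K (blue), with the number of genes in parentheses and lists ordered by the median interaction. The upper 3 lists hold the stress-response genes that chose the clones, the mitochondrially encoded genes had medians of -0.74 in V and 0.27 in K, and all genes tested had medians of 0.02 and 0.00.

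Among targets of YAP and TAZ, F3, the coagulation tissue factor, was at 52, 38.8, 57 and 41.8 CPM in V mono-cultures and at 142, 124, 169 and 154 CPM in V cocultures. K mono-cultures had 353, 253, 240 and 243 CPM and K cocultures 140, 196, 123 and 138 CPM. V rose and K fell without overlap of their own groups, and the coculture groups of the clones overlapped (interaction 2.50 ± 0.23, adjusted p = 1.6e-06). Of 12 YAP and TAZ targets, 6 had an interaction above 0 (21.4% of all genes) and 3 below 0 (23.9%, a like share), and Crim1, Ankrd1 and Cyr61 were on the side of F3. Tgfb2, a TGF-beta ligand, fell in K from 123 to 177 CPM to 52.7 to 99.8 CPM and rose in V from 10.7 to 16.2 CPM to 21 to 31.6 CPM (interaction 2.10 ± 0.27, adjusted p = 2.2e-05). The TGF-beta targets Id1, Id2, Id3 and Pmepa1 fell in both clones, by 0.62 to 2.35 on the log2 scale in V and by 0.67 to 1.70 in K.

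The genes with the largest fitted interactions were mostly absent from the mono-cultures of a clone. Of the 12 largest above 0, 7 had at most 3 counts over the 4 V mono-cultures, and of the 12 largest below 0, 10 had at most 3 counts over the 4 K mono-cultures. Their fitted folds depend on the small count added in the fit, so a bound against a floor of 3 counts over the group is given where a group had no count. Notch3, a Notch receptor, had no count in K mono-cultures and was at 3.49, 1.8, 6.69 and 9.39 CPM in K cocultures, at least 106-fold higher. In V it was at 3.79 to 8.28 CPM in mono-cultures and at 1.69 to 8.8 CPM in cocultures. C1qtnf6, a secreted protein, had 1 count over the 4 K mono-cultures and was at 2.24, 0.623, 7.47 and 7.92 CPM in K cocultures, while it fell to 0.409-fold in V.

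Peg3, an imprinted gene, was at 493 to 609 CPM in V mono-cultures and 538 to 669 CPM in V cocultures. It had no count in K mono-cultures and was at 0.132, 0.554, 1.43 and 2.27 CPM in K cocultures. For Notch3, C1qtnf6 and Peg3, as for Postn, K cocultures 3 and 4 were the highest, and the part of fibroblast RNA in these genes was not tested. In V, Acta2, the smooth muscle actin of activated fibroblasts, had 1 count over the mono-cultures and was at 12.7, 15.6, 16.7 and 40.2 CPM in cocultures. In K its mean went from 1.12 to 16.2 CPM, beside a mean of 21.3 CPM in V cocultures. Eif4g3, a translation initiation factor, had 2 counts in V mono-cultures and was at 1.42, 1.54, 3.23 and 5.27 CPM in V cocultures. In K it was at 9.17 to 13 CPM and at 5.61 to 12.5 CPM. Over the V cocultures, Acta2 and Eif4g3 rose in the same order as Postn, and the part of fibroblast RNA in them was not tested. Iigp1, an interferon-induced GTPase, had no count in V mono-cultures and at most 1.12 CPM in V cocultures.

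Genes that both clones expressed at 5 CPM or more in all 4 groups gave 4375 interactions past the threshold of 9063, with 2472 above 0 and 1903 below. This set and the genes named in this paragraph were chosen after their values were seen. Thbd, the thrombin receptor thrombomodulin, rose 8.80-fold in V and 1.72-fold in K (interaction 2.35 ± 0.26, adjusted p = 6.2e-06). Synpo, an actin-binding protein, fell to 0.149-fold in V and changed 1.04-fold in K (interaction -2.80 ± 0.28, adjusted p = 2.9e-06). Apcdd1, a Wnt inhibitor, was at 139 to 216 CPM in V mono-cultures and at 22.5 to 42.4 CPM in V cocultures, but at 81.5 to 97.2 CPM and 151 to 227 CPM in K, so both clones' groups were separate and opposite. Its interaction was -3.36 ± 0.26 (adjusted p = 4.4e-07).

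Opposite changes past the threshold in both clones were also seen for Grem1 and Dhrs9. Grem1, a secreted BMP inhibitor, was at 2.86, 2.83, 5.38 and 3.51 CPM in V mono-cultures and at 33.2, 46, 60.7 and 84 CPM in V cocultures, and at 242, 352, 217 and 296 CPM and 166, 211, 202 and 156 CPM in K. V rose 15.4-fold and stayed below every K library, and the K groups were separate (adjusted p = 0.083 for the fall in K). The interaction was 4.54 ± 0.36 (adjusted p = 4.8e-07). Dhrs9, a retinol dehydrogenase, rose 4.40-fold in V and fell to 0.341-fold in K, where mono-cultures were at 45.9 to 94.7 CPM and cocultures at 13.6 to 37.2 CPM (interaction 3.69 ± 0.41, adjusted p = 7.4e-06). On simple means of log2 CPM, Grem1 changed by 3.886 in V, -0.579 in K and between -1.109 and 2.565 in the other 6 lines. Dhrs9 changed by 2.072 in V, -1.599 in K and between -1.705 and 1.61 in the other 6 lines. V had the highest change of the 8 lines for both genes. Clone H was the highest of the other 6 lines for both, and clone M fell more than K for both.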

How the data were processed

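Poly(A) RNA of tumor cells, sorted after coculture, was sequenced with a strand-specific kit. The authors deposited whole-number read counts for 39017 genes, without normalization, and RPKM values for 49585 genes. The submitters' processing notes name featureCounts, edgeR and mm10. The aligner and annotation are not given in the sources used here. Counts of the 16 libraries of V and K (14424227 to 19486215 per library) were fitted with edgeR 4.0.16 (R 4.3.3) after TMM normalization and filterByExpr, which kept 12937 genes, with 1 mean per clone and culture. Interaction, responses and clone differences were contrasts of this fit, adjusted over all genes, with a threshold of 0.1. CPM use TMM-scaled totals, log2 CPM a prior count of 0.5. Standard errors were derived from the quasi-likelihood F statistic. DESeq2 1.42.0 and limma 3.58.1 on log2(RPKM + 1) served as alternatives. Positions are from GENCODE M21 on GRCm38.

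Clones, members and gene lists were chosen with earlier results of these data known. Named genes were stress-list members, the 12 largest interactions per direction at 5 CPM in a group (no predicted genes), up to 3 members per list and direction by adjusted p-value, and the 5 largest opposite changes per direction. Within groups, libraries differed by more than sampling noise (chi-square per gene between 8.76 and 57.8). The standard errors of interactions include the spread between libraries, whereas floors cover counting error only. Some list members are counted but not reported by name here.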

Additional observations from a re-analysis of the deposited data

Results flagged for a closer look

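The coculture response differed between V and K for 5865 genes by the test of the interaction, as described above.

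Among the displayed genes, 16 of 212 groups of 4 libraries held a library far from the other 3 (gap to the nearest library divided by the range of the group, above Dixon's 95% critical value for 4 samples). At 1 in 20, 10.6 would be expected by chance. In V mono-cultures the ratio was 0.899 for Ptgs2 and 0.876 for Ereg, both highest in the third library, 0.895 for Krt8, lowest in that library, and 1 for Dcn, which only the fourth library held above 0. In V cocultures it was 0.896 for Ddit3 and 0.88 for Nolc1, both highest in the third library, 0.908 for Scd2, lowest in the first, and 0.864 for Pfkp, highest in the fourth. In K mono-cultures it was 0.882 for Ereg, highest in the fourth library, 0.838 for Insig1, lowest in the second, 0.885 for F3, highest in the first, and 1 for Postn, which only the third held above 0. In K cocultures the fourth library was lowest for Scd2 (0.885) and highest for Mki67 (0.92) and Loxl2 (0.904), and the second was highest for Tgfb2 (0.846).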

How the results depend on the processing

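The count of 5865 interactions was 4648 with the run of sample numbers as a covariate, 5961 with all 64 libraries in the fit, 5949 with DESeq2 and 4375 among genes at 5 CPM in all groups. Leaving out each library in turn gave 5260 to 5919 interactions, 7610 to 8352 genes for the response of V, 7575 to 8345 for V against K in mono-culture and 9014 to 9444 in coculture. For the response of K it gave 2096 (without the fourth K coculture) to 3158. The median stress rise ranged from 1.74 to 1.99 in V, from 0.281 to 0.482 in K and from 0.239 to 0.266 in N.

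The response of K moved from 2747 genes to 1685 among 9063 genes at 5 CPM in all groups, where fewer genes were tested, and to 1185 without the 3 cocultures with the most fibroblast RNA, where fewer samples were used. Both alternatives were chosen after seeing the data. With limma on log2(RPKM + 0.1) the K response split into 2039 higher and 704 lower, against 1585 and 1162 in counts. For V against K in mono-culture limma on log2(RPKM + 1) gave 4956 higher and 3101 lower, against 3979 and 4071.

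On log2(RPKM + 1), with or without the filter, the interaction changed sign to 0.051 for Peg3, 0.35 for Myo5b and -0.51 for Ifit1, each near 0 counts in a group. The cause was not tested.

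Replicate numbers were not taken as pairs, because the labels tie them to no shared culture or day. All 24 same-numbered pairs correlated positively (0.004 to 0.306), 11 of them above 0.1. As a hint of pairing from the data, 13 of 16 libraries matched best with their own number. A replicate block gave 6407 interactions, 8561 genes for V, 3355 for K, and 8428 and 9582 for V against K in mono-culture and coculture.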
